A study of Mus musculus with 2 samples.

Results

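The platelet-derived growth factor (PDGF) system was followed through 6 genes, chosen by name: the ligand genes Pdgfa, Pdgfb, Pdgfc and Pdgfd and the receptor genes Pdgfra and Pdgfrb. They are 6 of the 32285 genes in the count tables, and each was detected in both libraries. Their transcripts were counted in single cells from mouse tissue behind the tibia, around the Achilles tendon, in 2 libraries made in droplets. The injured library came from the limb with a burn and tenotomy, at day 7 after the tendon was cut. The uninjured library came from the opposite limb, and its label also names the burn/tenotomy treatment, so it is not tissue of untreated mice. Both groups carried 1 Hoxa11 allele with CreERT2 (wt/CreERT2), a Cre-dependent rtTA at R26 (wt/LSL-rtTA) and the transgene TetO-Vegfd, which places the lymphatic growth factor Vegfd under rtTA in the Hoxa11 lineage. Mice were male and female and 8 to 12 weeks old at injury, with 5 mice per group. The sources used here do not say whether 1 library pooled several mice.

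PDGF ligands are secreted dimers that bind a pair of receptor tyrosine kinases and drive growth and migration of mesenchymal cells. PDGF-A and PDGF-C act mainly through PDGFR-alpha, while PDGF-B binds both receptors and PDGF-D acts mainly through PDGFR-beta. PDGF-C and PDGF-D are secreted in a latent form and need proteolytic cleavage. In vessels, endothelial PDGF-B recruits pericytes that carry PDGFR-beta, and in connective tissue PDGFR-alpha is a common marker of fibroblasts.

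The injured library held 10691 barcodes and the uninjured library 6850, against a stated aim of 2000 to 6000 cells, and 9151 and 4700 cells were kept. Median depth was 17492 and 15772 UMIs (unique transcript counts) per kept cell. More barcodes exceeded the mitochondrial limit of 10% in the uninjured library (26.4%) than in the injured library (7.49%), and 8 kept barcodes occurred in both libraries. Cells fell into 30 clusters, which were grouped into classes by marker genes that did not include the 6 PDGF genes. Class names stand for resemblance by those markers (endothelial-like, fibroblast-like and so on). The tendon genes Scx, Tnmd and Mkx were present over all cells at 55.6, 116 and 6.25 CPM (counts per 1000000) in the injured library and 85.8, 229 and 30.8 CPM in the uninjured library. There was 1 library per group, so no test of injury was possible. Levels are UMIs summed over the cells of a class, per 1000000 UMIs of that class. The 95% intervals are exact and allow for counting error alone; differences from mouse to mouse are not in them.

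The vascular endothelial class held 1200 injured and 1621 uninjured cells, and the fibroblast-lineage class 2360 and 1280. Mononuclear phagocytes numbered 2746 and 395, mural cells (pericytes and smooth muscle) 452 and 217, and lymphatic endothelial cells 84 and 84. The makeup of most classes differed between the libraries. Capillary cells were 65.5% of uninjured but 8.00% of injured vascular endothelial cells, and angiogenic cells of cluster 12 were 10.2% and 43.9%. A progenitor-type fibroblast cluster (cluster 6, Clec3b and Pi16) was 69.6% of uninjured but 3.94% of injured fibroblast-lineage cells, and activated fibroblasts of cluster 4 were 0.703% and 51.1%. A class ratio therefore combines differences within clusters with a different mix of clusters. For the 6 genes, class and cluster levels are given side by side below. For other pathway genes only class levels are given.

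**Figure D1:**
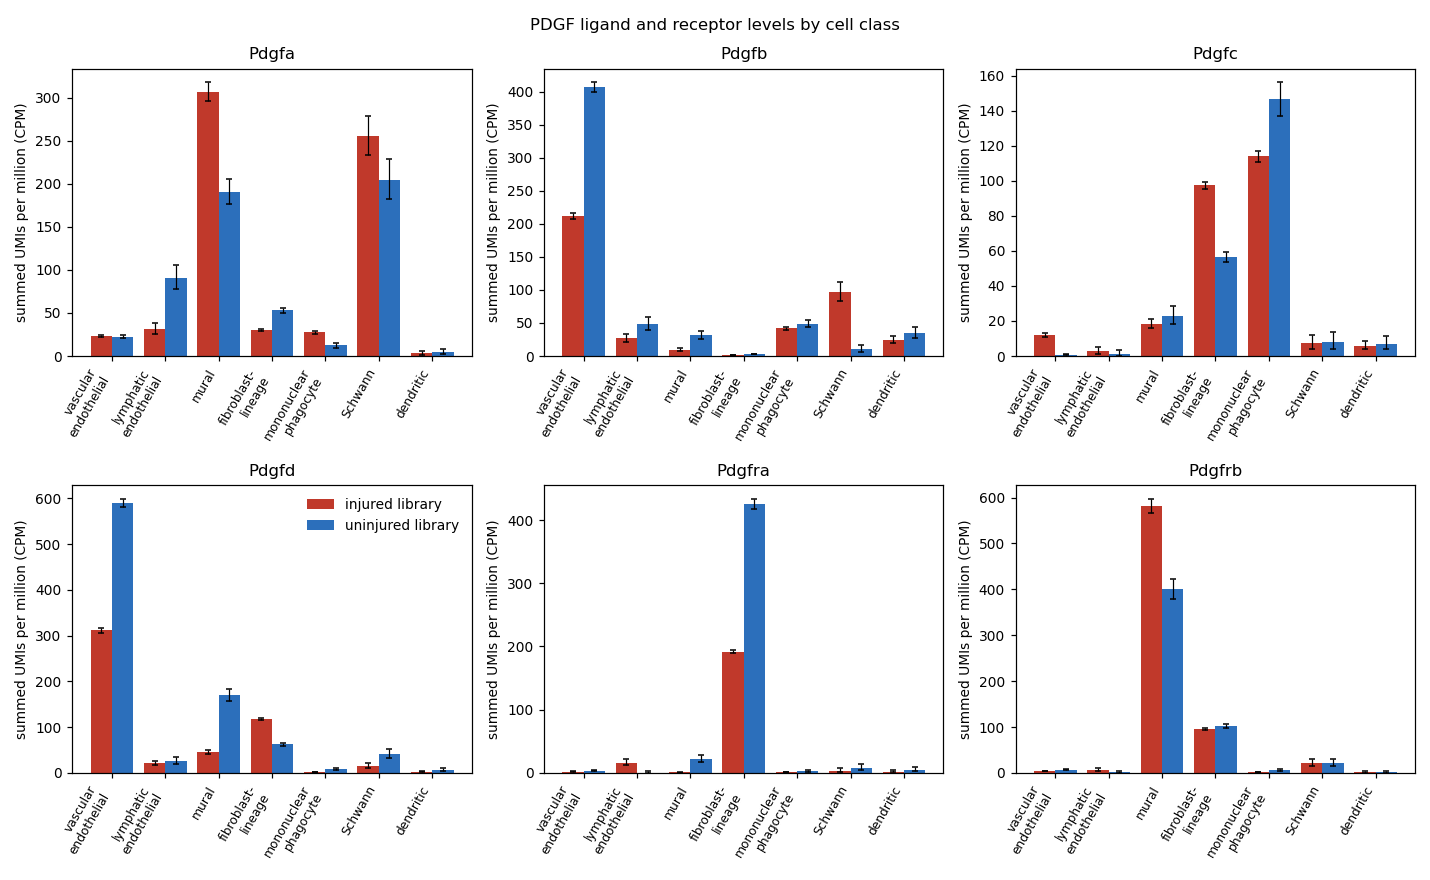
Summed UMIs per 1000000 (CPM) (linear y axis from 0) for each gene in 7 cell classes, with injured bars in red, uninjured bars in blue and exact 95% Poisson intervals as error bars (counting error only, 1 library per group). Pdgfb and Pdgfd stood highest in vascular endothelial cells, Pdgfra in fibroblast-lineage cells and Pdgfrb in mural cells, in both libraries.

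Pdgfb (ENSMUSG00000000489, chromosome 15, 79995874 to 80014977, minus strand, GRCm38), the ligand known for pericyte recruitment, was a mainly endothelial transcript. Vascular endothelial cells held 68.6% of its UMIs in the injured library and 80.2% in the uninjured library. Its level there was 211 CPM (95% interval 207 to 216) in the injured library and 407 CPM (400 to 414) in the uninjured one. The injured level was 0.519 times the uninjured level (interval 0.505 to 0.533). Leaving the mix of clusters aside, the gap was smaller: with the 5 vascular clusters weighted the same, the levels were 222 and 328 CPM.

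Within the vascular clusters the direction for Pdgfb was not uniform. Capillary cells had 307.5 CPM in the injured and 490.4 CPM in the uninjured library, and arterial cells 224.5 and 425 CPM. The angiogenic clusters had 238 and 286 CPM (cluster 12) and 227 and 341.5 CPM (cluster 5, with cycling genes). Venular cells had the lowest level of the 5 in both libraries, and there the injured value was the higher one, 114 against 99.7 CPM. With each cell thinned to 3000 UMIs, 39.7% of injured (interval 36.8 to 42.6) and 62.6% of uninjured vascular endothelial cells (60.1 to 65.0) had a Pdgfb UMI. Unthinned shares were 83.6% and 89.0%, at median depths of 24800 and 14426 UMIs. Neutrophils of the injured library, which served as background, had a thinned share of 0.469% at a median of 3965 UMIs.

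The mural gene Rgs5 and the summed pericyte and smooth muscle lists moved with the vascular endothelial result, but not every mural gene did so. The 10 pericyte markers, all detected in both libraries, summed to 79.7 CPM in injured and 426 CPM in uninjured vascular endothelial cells. Of these sums Rgs5 gave 40.3 and 371 CPM. The 10 smooth muscle markers, which also include Rgs5, summed to 206 and 660 CPM. Kcnj8 had 4.1 and 4.5 CPM and the smooth muscle gene Myh11 1.90 and 7.54 CPM. Acta2 went the other way, with 54.5 and 26.4 CPM. Their part in the Pdgfb difference was not tested. Mural cells themselves had Pdgfb at 9.46 and 31.2 CPM, below the vascular endothelial level in both libraries.

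Outside the vessels, Pdgfb was present in phagocytes at 41.8 CPM (39.8 to 43.9) in the injured library and 48.5 CPM (43.2 to 54.3) in the uninjured one. Among injured phagocytes it stood highest in an osteoclast-like cluster, at 96.0 CPM in 589 cells. In monocyte and MHC class II cells it was 43.8 and 78.8 CPM, and in resident macrophages 13.8 and 26.8 CPM. T or NK lymphocytes, also used as background, had Pdgfb at 21.6 CPM in 227 injured cells and 21.9 CPM in 47 uninjured cells. Phagocytes held 13.3% of all Pdgfb UMIs in the injured library against 1.91% in the uninjured library, where they were also a smaller share of cells (8.40% of the library).

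Schwann cells, the glia of peripheral nerve, showed a large contrast for Pdgfb. The level was 96.7 CPM in 100 injured cells and 10.4 CPM in 170 uninjured cells, a ratio of 9.27 (5.56 to 16.6). The 187 injured UMIs lay in 42 cells, with 24 in the highest cell, and the 16 uninjured UMIs in 10 cells. Lymphatic endothelial cells had 26.7 and 48.3 CPM (ratio 0.552, 0.407 to 0.747).

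Pdgfd (ENSMUSG00000032006, chromosome 9, 6168584 to 6378850, plus strand), a latent ligand of PDGFR-beta, was also high in vascular endothelium, and fibroblasts held much more of it in the injured library. Vascular endothelial cells had 312 CPM (306 to 317) in the injured library and 589.5 CPM (581 to 598) in the uninjured one, a ratio of 0.528 (0.517 to 0.541). In fibroblast-lineage cells the order was the opposite, 117 CPM (115 to 119) against 62.5 CPM (59.6 to 65.6), a ratio of 1.88 (1.78 to 1.97). Vascular endothelial cells thus held 46.3% of injured but 76.8% of uninjured Pdgfd UMIs, and fibroblast-lineage cells 46.4% and 7.26%.

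Within the vascular clusters the Pdgfd difference was mostly smaller than in the class as a whole. Capillary cells had 571 and 628 CPM, angiogenic cells of cluster 12 had 377 and 401 CPM, and venular cells 212 and 167 CPM. The cycling cluster 5 had the lowest ratio, at 163 and 362 CPM (0.450, 0.416 to 0.487), with 194 of its 1718 injured and 177 of its 1007 uninjured UMIs in 1 cell each. Arterial cells had the highest level in both libraries, 858 CPM injured and 1169 CPM uninjured. With the 5 clusters weighted the same, the levels were 436 and 545 CPM. In fibroblasts the difference was larger inside the only cluster with 50 or more cells in both libraries: progenitor-type cells had 221 CPM in 93 injured and 68.8 CPM in 891 uninjured cells. The thinned share of fibroblast-lineage cells with a Pdgfd UMI was 23.3% (21.5 to 25.1) against 13.5% (11.7 to 15.6). The share of injured neutrophils was 1.17%. T or NK lymphocytes, the other background class, had Pdgfd at 4.7 CPM in 227 injured cells and 54.7 CPM in 47 uninjured cells. The 25 uninjured UMIs of that class lay in 6 cells, with 14 in 1 cell.

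In mural cells Pdgfd was lower in the injured library, 45.95 CPM (41.9 to 50.3) against 170 CPM (156 to 184), a ratio of 0.271 (0.239 to 0.306). Cluster 22, whose cells had both pericyte genes (Rgs5, Notch3) and contractile smooth muscle genes (Acta2, Tagln, Myh11) among their leading genes, had 44.8 and 246 CPM. Cluster 29, named by the smooth muscle list, had 57.0 CPM in 48 injured cells and 158 CPM in 107 uninjured cells. Thinned shares were 11.1% and 25.2%.

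Pdgfa (ENSMUSG00000025856, chromosome 5, 138976014 to 138997370, minus strand), a ligand of PDGFR-alpha, was spread over many classes. Its highest class levels in the 2 libraries were in mural and Schwann cells. Mural cells had 307 CPM (297 to 318) in the injured library and 190.5 CPM (176 to 206) in the uninjured one, a ratio of 1.61 (1.48 to 1.76). Schwann cells had 255 and 204.5 CPM. Within mural cluster 22 the values were 297 and 149 CPM, and within cluster 29 they were 398 CPM (48 cells) and 229 CPM. After thinning, mural cells with a Pdgfa UMI numbered 212 of 424 in the injured library (interval 45.1% to 54.9%) and 84 of 214 cells in the uninjured library (32.7% to 46.1%). The 13 fibroblast markers, all detected, summed to 9354 CPM in the injured and 4405 CPM in the uninjured mural class, but they did not all go that way. Col1a1 had 2175 against 744 CPM, whereas Dcn had 95.4 against 504.5 CPM. The tenocyte list summed to 41.8 against 144 CPM. The part of such RNA in the mural results was not tested.

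In fibroblast-lineage cells Pdgfa was 30.3 CPM (29.3 to 31.4) in the injured library and 53.0 CPM (50.4 to 55.8) in the uninjured one, a ratio of 0.571 (0.537 to 0.608). The uninjured level came mainly from tenocyte-type cells, which had 130 CPM in 367 cells. The injured library held 16 of those cells. Progenitor-type cells had 9.42 and 13.5 CPM, and injured activated fibroblasts of cluster 4 had 37.6 CPM. The thinned share was 8.30% against 12.9%, but unthinned shares ran the other way, 47.6% against 34.8%, at median depths of 44726 and 19700 UMIs.

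Phagocytes had more Pdgfa in the injured library, 27.7 CPM (26.1 to 29.4) against 12.3 CPM (9.69 to 15.4), a ratio of 2.25 (1.79 to 2.88). By cluster, injured wound-type macrophages had 34.6 CPM and osteoclast-like cells 48.8 CPM, and both were nearly absent from the uninjured library, with 16 and 6 cells. Monocyte and MHC class II cells had 16.2 and 15.1 CPM and resident macrophages 11.2 and 9.76 CPM. The part of the cluster mix in the phagocyte ratio of Pdgfa was not tested. Lymphatic endothelial cells had less Pdgfa in the injured library, 31.9 against 91.0 CPM (ratio 0.351, 0.273 to 0.449), from 103 and 179 UMIs. The log2 ratio of -1.48 was -0.80 with cells thinned before summing. The 8 lymphatic markers summed to 5896 CPM in the injured and 14852 CPM in the uninjured class, the fibroblast list to 1483 and 229 CPM and the 5 erythroid genes to 2057 and 79.9 CPM, all markers detected, and their part in the Pdgfa value was not tested. In vascular endothelial cells the levels were 23.1 and 22.4 CPM, and the interval of the ratio, 0.936 to 1.14, spans 1. Keratinocytes, found only in the injured library (306 cells), had 94.5 CPM.

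Pdgfc (ENSMUSG00000028019, chromosome 3, 81036416 to 81214040, plus strand), the other latent ligand and one that acts through PDGFR-alpha, was a transcript of fibroblasts and phagocytes. Fibroblast-lineage cells held 64.8% of its UMIs in the injured and 56.8% in the uninjured library, and phagocytes 27.9% and 33.0%. Fibroblast-lineage cells had 97.4 CPM (95.6 to 99.3) against 56.5 CPM (53.7 to 59.4), a ratio of 1.72 (1.63 to 1.82). Injured activated fibroblasts had 124 CPM (cluster 4) and 147 CPM (cluster 18, cycling), and uninjured tenocyte-type cells 92.0 CPM. Progenitor-type cells had 63.0 CPM injured and 38.4 CPM uninjured. The thinned share was 17.7% (16.1 to 19.3) against 10.2% (8.58 to 12.1).

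In phagocytes Pdgfc was 114 CPM (111 to 117) in the injured library and 146 CPM (137 to 156) in the uninjured one, a ratio of 0.778 (0.724 to 0.836). Resident macrophages (Cd163, Lyve1, Folr2), the cluster with the highest level, had the opposite order, 323 CPM in 350 injured cells against 242 CPM in 201 uninjured cells. Monocyte and MHC class II cells had 12.9 and 31.8 CPM. Resident cells were 12.8% of injured and 50.9% of uninjured phagocytes. With these 2 clusters weighted the same, the levels were 168 and 137 CPM, the order of the resident cells. Wound-type and osteoclast-like cells, 30.1% and 21.5% of injured phagocytes, are not in that mean, as the uninjured library held 16 and 6 of them. The part of the cluster mix in the class ratio was not tested.

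Pdgfc in vascular endothelium was low but had the largest ratio of the 6 genes in this class. There were 494 UMIs in 163 injured cells and 24 UMIs in 15 uninjured cells, or 12.0 and 0.777 CPM (ratio 15.5, 10.3 to 24.4). With the 5 clusters weighted the same the levels were 10.8 and 1.37 CPM. Venular cells carried most of it, with 342 of the 494 UMIs and 40.7 CPM in 320 cells, against 5.32 CPM in 147 uninjured cells. Thinned shares were 3.48% (2.50 to 4.71) and 0.257% (0.0701 to 0.657), and the neutrophil share was 0.821% (0.331 to 1.68). T or NK lymphocytes, the other background class, had Pdgfc at 13.6 CPM in 227 injured cells, from 29 UMIs in 13 cells. The 47 uninjured cells of that class had 0 UMIs. In the injured library the vascular endothelial level was thus not above that of this background class. Markers of other classes differed too, in both directions. The fibroblast list summed to 705.5 against 252 CPM, though its member Dcn had 30.3 against 43.5 CPM. The macrophage list (10 of 10 detected) summed to 341 against 114 CPM. Lower in injured cells were, among others, the pericyte (79.7 against 426 CPM), smooth muscle (206 against 660), tenocyte (13.5 against 38.6) and erythroid lists (307 against 3218). Their part in the Pdgfc value was not tested.

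**Figure D2:**
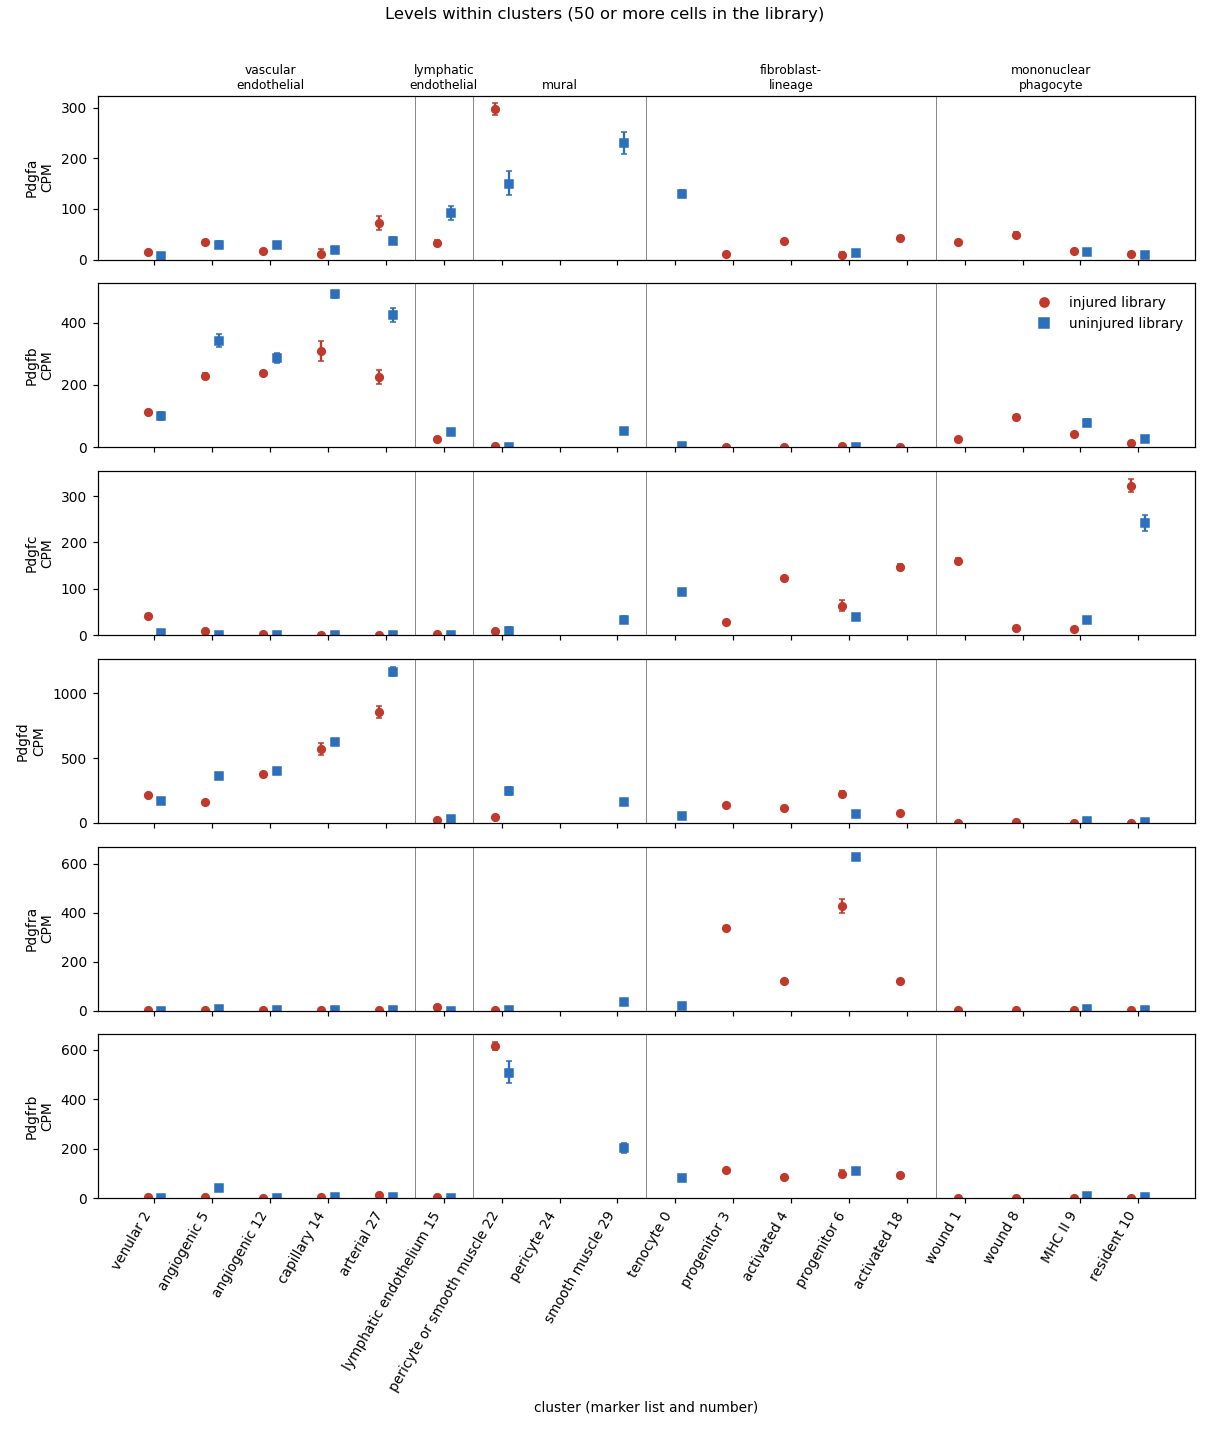
Summed UMIs per 1000000 (CPM) (linear y axis from 0, a scale for each gene) by cluster, with injured points as red circles, uninjured points as blue squares and exact 95% Poisson intervals, for clusters with 50 or more cells in that library. Venular cells had the lowest Pdgfb of the vascular clusters and the highest Pdgfc, arterial cells had the highest Pdgfd, and resident macrophages had the highest Pdgfc.

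Pdgfra (ENSMUSG00000029231, chromosome 5, 75152292 to 75198215, plus strand), the receptor of PDGF-A and PDGF-C, was almost wholly a fibroblast transcript. Fibroblast-lineage cells held 96.1% of its UMIs in the injured and 94.3% in the uninjured library. The level was 192 CPM (189 to 194) in the injured library and 425 CPM (418 to 433) in the uninjured one, a ratio of 0.451 (0.441 to 0.461). This was the 1 PDGF gene of the class that was more than 2-fold lower.

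The fibroblast clusters differed in Pdgfra more than the libraries did. Progenitor-type cells had 427 CPM in 93 injured and 627 CPM in 891 uninjured cells. Injured cells of cluster 3, nearest to the same list and led by Sfrp2 and Cxcl14, had 339 CPM, whereas activated fibroblasts of clusters 4 and 18 had 120 and 122 CPM. Uninjured tenocyte-type cells had 19.3 CPM. An unnamed cluster led by Apod, Gpc3 and Sfrp5 had 374 and 528 CPM in 79 cells of each library. The thinned share of fibroblast-lineage cells with a UMI was 37.6% (35.6 to 39.6) in the injured library and 56.7% (53.8 to 59.5) in the uninjured library. Unthinned, the order was reversed, 87.6% against 72.4%, which did not follow the CPM.

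Elsewhere Pdgfra was near background. Vascular endothelial cells had 1.88 and 3.14 CPM, phagocytes 1.09 and 3.07 CPM and injured neutrophils 1.62 CPM. Mural cells had 0.869 and 22.3 CPM, but the 76 uninjured UMIs lay in 9 cells, 26 of them in 1 cell. Lymphatic endothelial cells had 16.4 and 0.509 CPM, and the 53 injured UMIs lay in 4 cells, 28 of them in 1 cell. The injured lymphatic class carried the fibroblast list at 1483 CPM against 229 CPM, and its part in this value was not tested. These values rest on too few cells to describe the mural or lymphatic classes.

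Pdgfrb (ENSMUSG00000024620), the receptor of PDGF-B and PDGF-D, was highest in mural cells and present in fibroblasts. Mural cells had 582 CPM (567 to 596) in the injured library and 400.4 CPM (379.5 to 422) in the uninjured one, a ratio of 1.45 (1.37 to 1.54). Cluster 22 had 615 and 508 CPM, and it made up 88.3% of injured but 34.1% of uninjured mural cells. Cluster 29 had 284 CPM (48 cells) and 203 CPM (107 cells), and it was 10.6% and 49.3% of the class. A small pericyte cluster, mostly uninjured (5 and 36 cells), had 1320 CPM in the uninjured library. Thinned shares of mural cells with a Pdgfrb UMI were 79.7% (75.6 to 83.4) and 63.6% (56.7 to 70.0), and unthinned shares were 94.2% and 93.1%.

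Fibroblast-lineage cells had Pdgfrb at 95.7 CPM (93.9 to 97.6) in the injured library and 103 CPM (98.8 to 106) in the uninjured one, a ratio of 0.934 (0.895 to 0.974). Its range over fibroblast clusters with 50 or more cells was narrow, from 81.8 CPM in uninjured tenocyte-type cells to 113 CPM in injured cells of cluster 3. Fibroblasts held more Pdgfrb UMIs than mural cells in both libraries (55.4% against 31.9% injured, 42.1% against 20.3% uninjured), with cluster 23 left out of the mural class. Unnamed clusters held 10.0% and 32.5%, of which cluster 23 gave 9.37% and 31.4%. Counted as mural, it would bring mural cells to 41.3% and 51.7%, which turns the order in the uninjured library. Cluster 23 had pericyte and endothelial markers in the same barcodes (135 and 239 cells). There Pdgfrb was 233 and 282 CPM and Pdgfb 156 and 299 CPM. T or NK lymphocytes, a background class, had Pdgfrb at 3.76 CPM in 227 injured cells and 35.0 CPM in 47 uninjured cells. The 16 uninjured UMIs of that class lay in 3 cells.

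**Figure D3:**
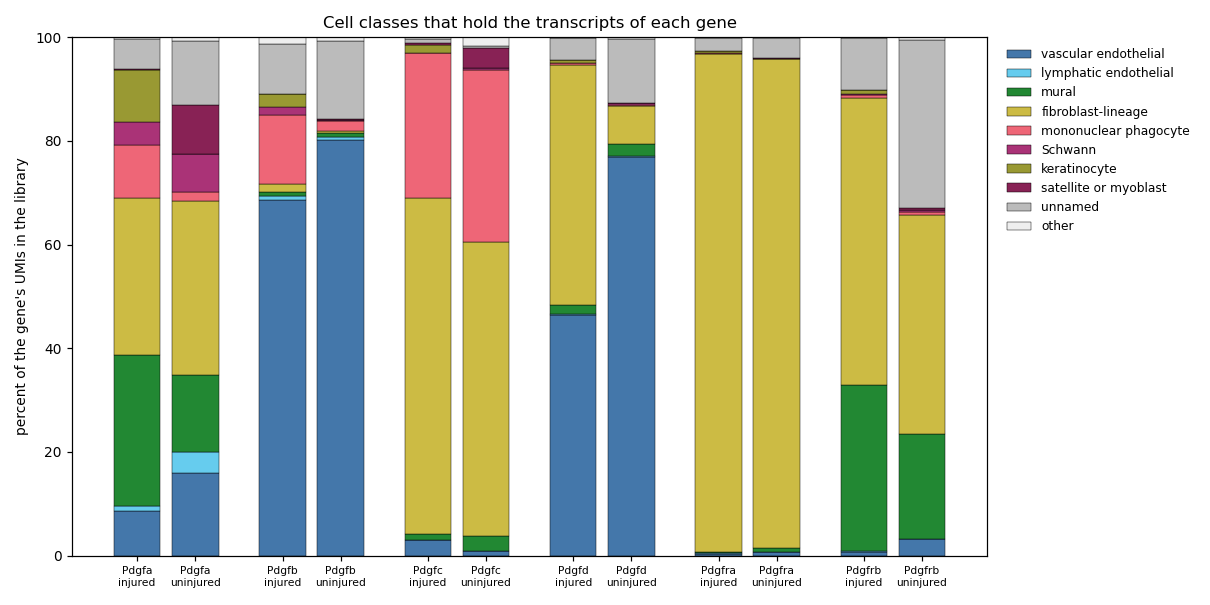
Percent of each gene's UMIs held by each cell class, 1 bar per library, with all bars summing to 100. Fibroblast-lineage cells (yellow) held 96.1% and 94.3% of Pdgfra, and their share of Pdgfd was 46.4% in the injured and 7.26% in the uninjured library.

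Ligand and receptor transcripts were then counted in the same cells, each thinned to 3000 UMIs. Pdgfb and Pdgfd occurred together in 22.5% of injured (20.2 to 25.1) and 43.6% of uninjured vascular endothelial cells (41.1 to 46.1). Pdgfra and Pdgfrb occurred together in 9.86% of injured (8.66 to 11.2) and 15.5% of uninjured fibroblast-lineage cells (13.5 to 17.7), where independent spread gives 8.9% and 14.5%. In mural cells, Pdgfa with Pdgfrb was found in 39.6% (34.9 to 44.5) and 22.0% (16.6 to 28.1), where it gives 39.15% and 24.6%. The joint shares of Pdgfra with Pdgfrb and of Pdgfa with Pdgfrb thus lay near those of independent spread.

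Ligand and receptor transcripts of 1 signalling pair were also counted together, beside the share that independent spread over the class would give. In fibroblast-lineage cells, Pdgfa with Pdgfra was found in 2.49% of injured and 1.90% of uninjured cells, where independent spread gives 3.25% and 6.94%. Pdgfc with Pdgfra was found in 5.33% and 3.22%, where it gives 7.57% and 5.60%. Pdgfd with Pdgfrb was found in 5.11% and 3.55%, where it gives 5.74% and 3.32%. Pdgfb with Pdgfrb was found in 0.261% and 0.514% of vascular endothelial cells, in which Pdgfrb itself was rare (independent spread gives 0.478% and 0.445%). In mural cells this pair was found in 1.42% and 2.34%, where independent spread gives 2.18% and 4.06%. In cluster 23 the joint share was 22.4% (15.6 to 30.4) and 29.4% (23.5 to 35.9), where it gives 18.0% and 31.5%. Whether the barcodes of cluster 23 are doublets was not tested.

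**Figure D4:**
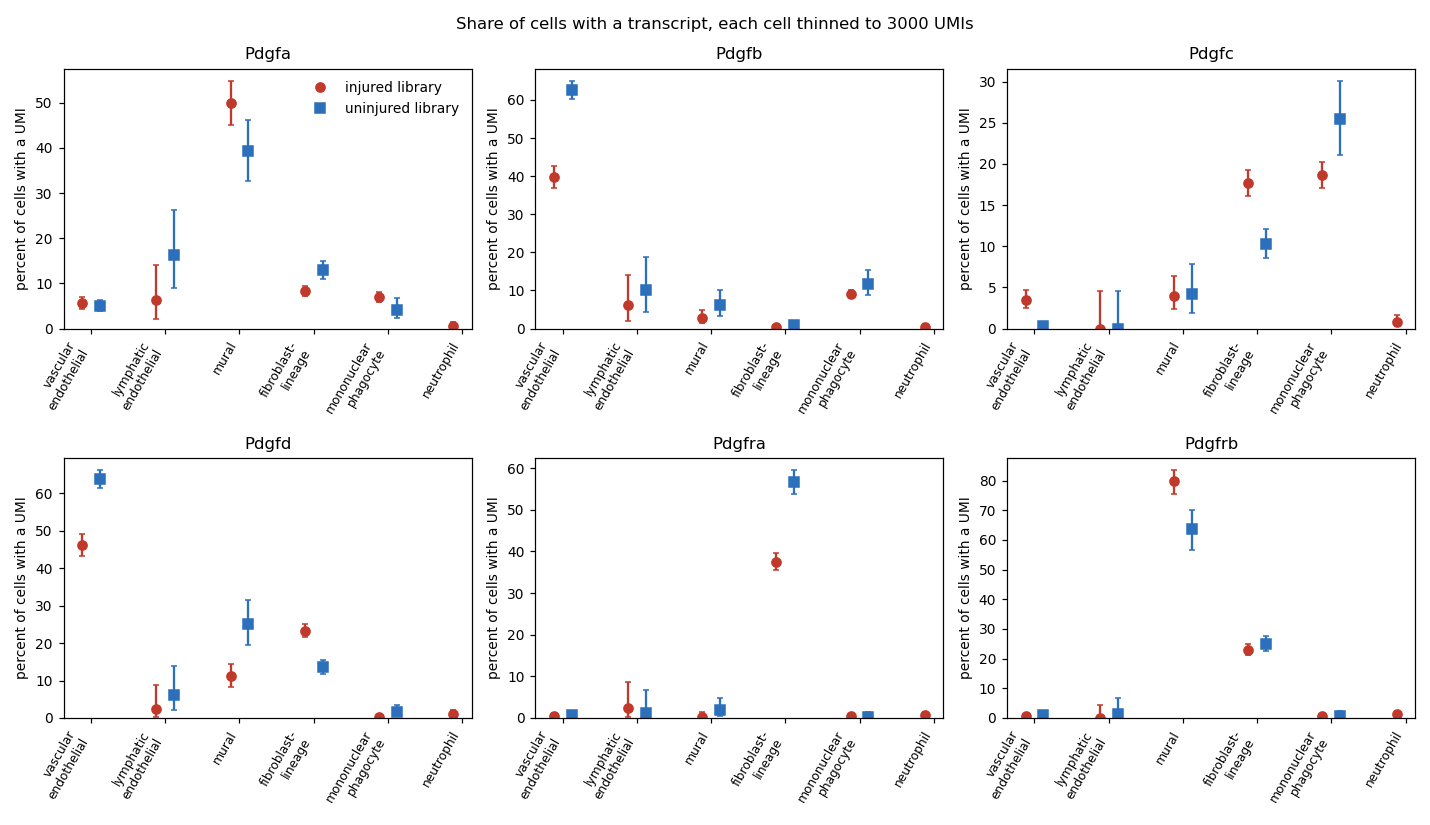
Percent of cells with at least 1 UMI of each gene after thinning every cell to 3000 UMIs (linear y axis from 0), injured as red circles and uninjured as blue squares, with exact Clopper-Pearson 95% intervals. Neutrophils, shown for the injured library, mark the background, at 0.469% to 1.41%. The uninjured library held 4 neutrophils, too few to give a background there.

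The 6 genes were set against all genes of each class at a mean of 5 CPM or more, counting log2 ratios (pseudocount 1 CPM) past 2-fold. In vascular endothelium, 1 of 5 PDGF genes that passed the level filter was more than 2-fold higher (Pdgfc) and 0 were lower, where 6.72% of 10383 genes were higher and 5.33% lower. Pdgfb and Pdgfd, at -0.94 and -0.92, lay just inside that limit. In mural cells 0 of 6 were higher and 3 lower (Pdgfb, Pdgfd and Pdgfra), against 8.57% and 8.24% of 10897 genes. Within cluster 22 Pdgfb had the opposite order, 5.73 against 0.969 CPM from 53 and 1 UMIs, and Pdgfra rests on the 9 uninjured cells above and turned in 2 alternatives. In fibroblast-lineage cells 0 of 5 were higher and 1 lower (Pdgfra), against 5.61% and 8.36% of 10798 genes. In phagocytes 1 of 4 was higher (Pdgfa) and 1 lower (Pdgfd, where 24 of the 53 uninjured UMIs lay in 1 cell), against 3.86% and 5.8% of 9871 genes. In lymphatic endothelium 1 of 4 was higher (Pdgfra, from the 4 cells above) and 1 lower (Pdgfa), against 12.7% and 12.8% of 10676 genes.

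**Figure D5:**
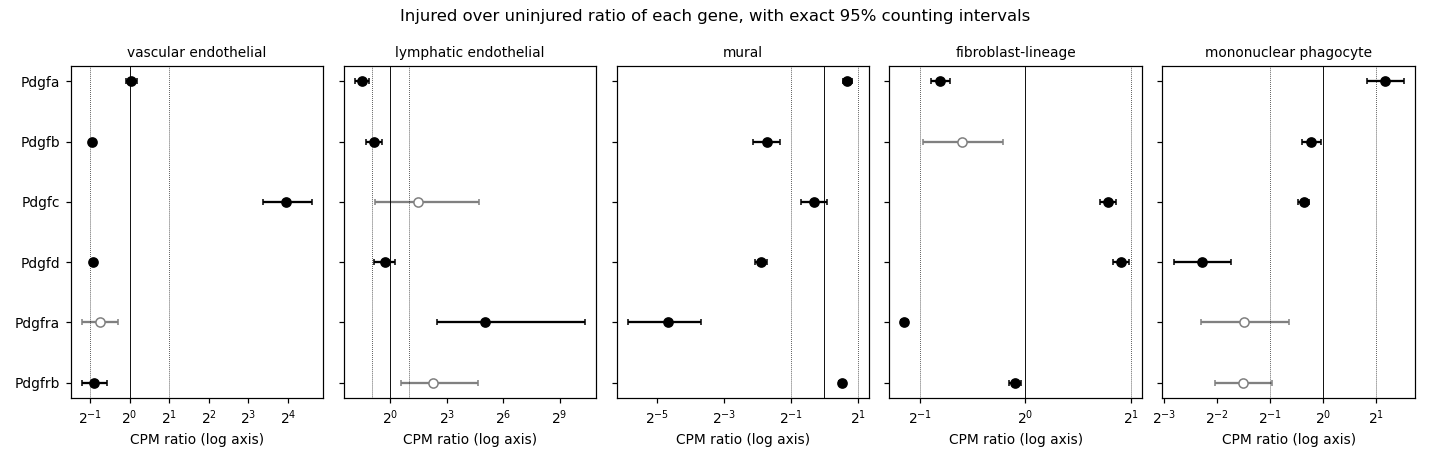
Ratio of the injured to the uninjured level (CPM, no pseudocount, log axis with its own range in each panel) for each gene in 5 classes, with exact 95% counting intervals, a solid line at 1 and dotted lines at 2-fold. Open grey points mark genes at a mean under 5 CPM. Pdgfd was below 1 in vascular endothelial and mural cells and above 1 in fibroblast-lineage cells.

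Other genes of the pathway were taken from lists of 49 genes for ligand processing, matrix retention, co-receptors, signal transduction and attenuation. In fibroblast-lineage cells, 2 of 48 genes that passed the level filter were more than 2-fold higher and 8 lower (5.61% and 8.36% of all genes), with a median log2 ratio of -0.22 against -0.07 over all genes. Of the 8, 5 were among the 10 attenuators, whose median was -0.88. Spry4, Spry1 and Dusp6, feedback inhibitors of receptor tyrosine kinase and MAP kinase signalling, had 2.55 against 40.1 CPM, 16.8 against 92.4 CPM and 12.0 against 44.4 CPM. These are levels of the whole class, in which tenocyte-type cells were 0.678% of injured and 28.7% of uninjured cells. The part of the cluster mix in them was not tested. Pcsk6, a proprotein convertase, had 19.9 against 136 CPM. Among the higher genes was the kinase Src (34.6 against 15.9 CPM).

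In vascular endothelium 4 of 47 pathway genes were higher and 5 lower (6.72% and 5.33% of all genes), with a median of 0.07 against 0.04 over all genes. Cblb, a ubiquitin ligase that attenuates receptor signalling, had 185 against 68.9 CPM, the phosphatase Ptpn1 165 against 80.4 CPM, Plau 16.8 against 6.86 CPM and Stat5a 16.5 against 6.64 CPM. The co-receptor Nrp1 was lower, at 291 against 794.5 CPM, as were Pcsk6 (6.21 against 15.3 CPM) and Spry4 (24.1 against 51.0 CPM). Mural cells had 2 of 47 higher and 0 lower, where 8.57% and 8.24% of all their genes were. The 2 were Sparc, a matrix protein that binds PDGF-B (5635 against 2342 CPM), and Plau, the urokinase that can activate PDGF-D (19.5 against 7.35 CPM).

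Phagocytes had 2 of 42 pathway genes higher, the adaptor Gab1 (179 against 81.2 CPM) and Src (19.8 against 2.10 CPM), and 1 lower, Prkca (21.5 against 45.0 CPM), where 3.86% and 5.8% of all genes were. Lymphatic endothelium had 4 of 47 higher and 3 lower, where 12.7% and 12.8% of all its genes were. There Plau was 142 against 19.8 CPM, Sparc 1119 against 369 CPM, Acp1 119 against 45.8 CPM and Src 10.2 against 1.02 CPM. Stat3 was 186 against 515 CPM, Spry1 7.44 against 36.1 CPM and Nrp1 9.30 against 35.1 CPM.

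Genes with the most similar pattern were found by Pearson correlation of log2(CPM + 1) over 41 units of 1 cluster in 1 library, which come from 26 clusters and share 2 libraries, among 11545 genes. This is a description, not a test. Pdgfb was closest to Hoxb4 (r = 0.90), Pim3 (0.87) and Mfng (0.87), and Pdgfd to Fam13c (0.93), Fat4 (0.92) and Apbb2 (0.91). Pdgfrb was closest to Ednra (0.94), Cacna1c (0.93) and Col6a3 (0.91), and Pdgfra to Lum (0.92), Dpep1 (0.92) and Adamts19 (0.91). The closest genes were less similar for Pdgfa, Cdh6 (0.75), Sox6 (0.74) and Ift43 (0.73), and for Pdgfc, Dtnbp1 (0.79), Rnf180 (0.78) and Scpep1 (0.78). Among the 6 genes, Pdgfb correlated with Pdgfd at 0.36 and with Pdgfra at -0.62, and Pdgfa with Pdgfrb at 0.44.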

How the data were processed

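The authors deposited raw UMI counts per gene and barcode, made with Cell Ranger 5.0.1 on mm10, per the submitters' processing notes. The annotation release was not given in these sources. Positions come from GENCODE (GRCm38). The analysis kept cells with at least 500 genes and no more than 10% mitochondrial UMIs. Scrublet (scanpy 1.11.5) marked 8 and 7 doublets by its automatic threshold, so 215 injured and 60 uninjured cells with a score above 0.2 were removed. Both libraries were clustered together (2000 variable genes without the 6 PDGF genes, 30 principal components, 15 neighbours, Leiden resolution 0.8). Clusters were named from marker lists, by the highest mean log2 ratio with 3 or more markers in 10% of cells. The doublet threshold and rules that left clusters unnamed were set after the data were seen. Free RNA was not removed. UMIs were summed per class. Named pathway genes were up to 4 highest and 4 lowest past 2-fold per class, and similar genes the 3 with the highest r. Some genes that the rule names are not reported here. The 6 genes and all lists were chosen with earlier results of these data known. Ratios and intervals were tried on simulated class sums drawn from a Poisson distribution, the model that the intervals assume. That run cannot show how well the intervals hold for counts clumped in few cells.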

Additional observations from a re-analysis of the deposited data

Results flagged for a closer look

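Among the 5 main classes, at a mean of 20 CPM or more and with counting intervals clear of 1, the injured and uninjured levels of 1 gene were ordered in opposite directions for 8 pairs of classes. The limit was set after the data were seen, and pairs at lower levels, such as Pdgfc in vascular endothelium, are not counted. With 1 library per group the difference between classes was not tested. Pdgfd had a log2 ratio of 0.90 in fibroblast-lineage cells, which differed by 2.76 from mural cells (-1.86) and by 1.81 from vascular endothelial cells (-0.92). Pdgfa had 1.11 in phagocytes, which differed by 1.90 from fibroblast-lineage cells (-0.79) and by 2.59 from lymphatic endothelial cells (-1.48). Pdgfa in mural cells (0.69) differed by 1.47 from fibroblast-lineage and by 2.17 from lymphatic endothelial cells. Pdgfc differed by 1.13 between fibroblast-lineage cells (0.78) and phagocytes (-0.36), and the phagocyte direction turned in 2 of 14 alternatives. Pdgfrb differed by 0.64 between mural (0.54) and fibroblast-lineage cells (-0.10), and the fibroblast-lineage direction turned in 2 of 14 alternatives (-0.24 to 0.17).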

How the results depend on the processing

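Of 24 log2 ratios of the 6 genes, 13 kept their sign in every alternative run and 11 changed it in at least 1. No paired analysis was possible because there was 1 library per group, and leaving out a replicate was not possible either. Alternatives that weight clusters the same, thin cells before summing or count cluster 23 as mural were chosen after the data were seen. On a median-of-ratios scale all fibroblast-lineage log2 ratios rise by 0.13, since the shift there is -0.13.

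Pdgfb in vascular endothelium (-0.94) was -0.85 with libraries clustered alone, -1.07 as a mean over cells, -0.65 and -1.30 in cells with only Xist or only Y-linked UMIs, -0.56 with clusters weighted the same and -1.05 thinned. Pdgfrb in mural cells (0.54) was 0.89 with doublets removed at 0.8% per 1000 barcodes, 0.87 clustered alone and 0.20 typed cell by cell. It was 0.18 as a mean over cells, 0.27 in cluster 22 alone, 0.45 with cluster 23 and 0.16 thinned. Pdgfa in fibroblast-lineage cells (-0.79) was -0.88 typed cell by cell, -0.67 on the median-of-ratios scale and -1.18 in Xist-only cells. It was -0.48 in cluster 6 alone and -0.89 thinned. Pdgfd there (0.90) was 0.79 with doublets kept, 0.99 clustered alone, 1.02 on the median-of-ratios scale and 1.00 as a mean over cells. It was 1.13 in Y-only cells and 1.67 in cluster 6 alone. Pdgfra there (-1.14) was -1.18 clustered alone, -1.10 typed cell by cell and -1.02 on the median-of-ratios scale. It was -0.88 in Y-only cells, -0.55 in cluster 6 alone and -1.04 thinned. Pdgfc in phagocytes (-0.36) was -0.18 at the higher doublet rate, -0.52 clustered alone and -0.20 thinned. It turned to 1.28 in Y-only cells (80 uninjured cells) and to 0.29 with clusters 9 and 10 weighted the same. Low-count values also turned. In Y-only cells, Pdgfra turned to -0.99 in lymphatic endothelium and to 0.73 in mural cells, and Pdgfd to 1.18 in phagocytes. In mural cells, Pdgfra turned to 0.23 typed cell by cell, and Pdgfb to 1.77 in cluster 22 alone. Pdgfrb in fibroblast-lineage cells (-0.10) changed sign in 2 of 14 alternatives, with values from -0.24 to 0.17. The cause was not tested.

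The share of cells with a UMI, injured minus uninjured in percentage points, was -5.44 unthinned for Pdgfb in vascular endothelium. In fibroblast-lineage cells it was -7.04 at 6000 UMIs and 12.7 unthinned for Pdgfa, 6.86 at 1500 UMIs, 18.0 at 6000 UMIs and 34.6 unthinned for Pdgfd, and -11.9 at 6000 UMIs and 15.2 unthinned for Pdgfra. For Pdgfrb in mural cells it was 7.37 at 1500 UMIs and 1.16 unthinned.

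Counts of pathway genes were small. With a pseudocount of 5 CPM, 1 was higher and 2 lower in vascular endothelium, 1 higher in mural cells, 0 higher in fibroblast-lineage cells and 0 lower in phagocytes. At a mean of 20 CPM or more, 2 were higher in vascular endothelium, 1 in mural cells and 1 in phagocytes. With no filter, 1 was lower in mural cells and 2 in phagocytes, and on the median-of-ratios scale 0 were lower in phagocytes.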
